A study of Homo sapiens with 12 samples.

Results

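The integrated stress response joins starvation for amino acids, endoplasmic reticulum stress and other insults to 1 transcription factor, ATF4, whose mRNA is translated better when the initiation factor eIF2alpha is phosphorylated. ATF4 and its target CHOP (the product of DDIT3) then switch on genes that import and make amino acids, charge tRNAs and slow growth signalling, and in lasting stress CHOP is known for its part in cell death. The 10 genes described here are ATF4 and DDIT3, the feedback regulator TRIB3, the growth restrainers DDIT4 and SESN2, the glutathione-degrading enzyme CHAC1, the biosynthetic enzymes ASNS, PSAT1 and PHGDH, and the amino acid transporter subunit SLC3A2. They were named by gene symbol as targets of ATF4 and CHOP in amino acid stress, with earlier results of these data known, so that the counts below are a description of named genes. All 10 were found among the 57736 genes of the count files, each as the sum of the reads in its 3′ regions.

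The libraries came from HepG2, a line from a liver hepatocellular carcinoma, and Ls174, a line from a colon cancer, which were either left untreated (control) or exposed for 24 h to HME at 0.7 mg/ml. HME is a methanol extract of the red macroalga Hypnea musciformis, a mixture whose active compounds are not defined, and the methods of the study give a slightly different concentration from the sample labels. All 4 groups were grown in DMEM with fetal bovine serum and hold 3 libraries each, described by the study as biological replicates. Whether serum was present while the sequenced cultures were exposed is not given in the sources used here. Nor is how the control cells were handled beyond being untreated. In its proliferation, cell death and mitochondrial membrane potential assays the study gave HME in medium without serum.

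The 12 libraries held between 1790841 and 3656662 counts, so that the floor of 3 counts lay between 0.763 and 1.86 CPM (counts per 1000000 counts, scaled by TMM like all levels given here). The methods of the study mention no molecular identifiers for the reads, and floors and counting intervals cover counting error only. The summed level of 8 liver markers ran from 21922 to 26362 CPM in HepG2 controls, from 15162 to 17170 CPM after HME and from 0.309 to 131 CPM in Ls174 libraries, and that of 8 intestinal markers from 379 to 471 CPM in Ls174 and from 69.4 to 208 CPM in HepG2 libraries, with CEACAM5 at 0 in HepG2 and KRT20 at 0 in the Ls174 controls. Blood and endothelial markers summed to at most 5.08 CPM in any library, but 6 mesenchymal markers reached 1072 CPM in 1 HepG2 HME library (replicate 2) against 26.6 to 86.6 CPM in the HepG2 controls. The part of these markers in the results was not tested. A control library of each line stood apart from its group over the 500 most variable genes: HepG2 control 2, with a mean distance of 49.5 to its group against 36.8 and 37.0 for the others, and Ls174 control 1, with 73.8 against 44.6 and 45.8. Ls174 control 1, with 1977996 counts, held reads of 13885 genes, against 17139 and 18324 in the other Ls174 controls. HepG2 HME 3, with 1790841 counts, held reads of 16839. The part of this in the levels of Ls174 control 1 was not tested. Results for the 10 genes are given with and without HepG2 control 2 and Ls174 control 1. Both were picked by their distance in these same data, and leaving them out tends to narrow the spread of their control group. Adjusted p-values without them are therefore likely to be too small and are given as description only.

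Most reads of each gene fell in 1 region at its 3′ end, which held 98.1% to 100% of its counts. On hg19 these regions lie at chr22:39918608-39918888 for ATF4, chr12:57910174-57910735 for DDIT3, chr20:377335-378400 for TRIB3, chr10:74034947-74035991 for DDIT4 and chr1:28607314-28609199 for SESN2. Those of the other genes lie at chr15:41247973-41248907 for CHAC1, chr7:97481233-97481780 for ASNS, chr9:80944003-80945206 for PSAT1, chr1:120286664-120287035 for PHGDH and chr11:62655841-62656549 for SLC3A2. Each takes in part of a 3′ untranslated region, and those of DDIT3, ASNS and SLC3A2 also hold coding sequence. The DDIT3 region shares 462 bases with the 3′ region of MARS, the methionyl-tRNA synthetase gene on the opposite strand, which held 2655 counts against 752 for DDIT3, and the sources used here do not state whether counting used the strand. The processed pseudogenes ATF4P3 and ATF4P4 held 2.95% and 2.73% as many counts as ATF4, and ASNSP4 held 1.94% as many as ASNS.

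ATF4 binds DNA with C/EBP proteins, CHOP among them, at a composite element, searched here as TGATGNAA on both strands. In the 500 bases before and 100 after the GENCODE start on GRCh37, this motif occurred in 4 of the 9 genes with a matched start (none was matched for DDIT4) and in 5.23% of 19869 genes. The 4 stretches are shown because they are the places where these promoters carry the letters of the element, which is in capitals and is read on the opposite strand in SESN2, DDIT3 and CHAC1.
ASNS, chr7:97501770-97501799, minus strand: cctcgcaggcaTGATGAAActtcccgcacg
CHAC1, chr15:41245449-41245478, plus strand: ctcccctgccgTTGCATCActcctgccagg
DDIT3, chr12:57914585-57914614, minus strand: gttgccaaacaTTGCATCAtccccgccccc
SESN2, chr1:28585722-28585751, plus strand: gtgaagtccctTTTCATCAcgcaaccctaa
Counted from the start, the motif begins at -68 in ASNS, -209 in CHAC1, -306 in DDIT3 and -296 in SESN2. In RefSeq promoters, 250 bases before to 50 after the start on GRCh38, it occurred in 3 of the 10 genes, ASNS, CHAC1 and SLC3A2, against 4.46% of 27305. The stretches in CHAC1 and DDIT3 share the letters TTGCATCA. A match of letters was not tested for binding.

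In HepG2 cells DDIT4, SLC3A2 and TRIB3 rose after HME by 2.59 to 6.21 times, and of the other tested members only the serine synthesis enzymes PSAT1 and PHGDH had control and HME libraries that overlapped. The summed level of the 10 genes was 975 to 1416 CPM in the HepG2 controls and 2036 to 2637 CPM after HME. In Ls174 cells the sum was 1200 to 1745 CPM without and 2598 to 3062 CPM with HME, and DDIT4 rose by 4.18 times. PSAT1 and PHGDH had linear fold changes of 2.07 and 1.98, and ATF4, TRIB3, ASNS and SESN2 ones of 1.99 to 2.52. Those of CHAC1, DDIT3 and SLC3A2 were 1.93, 1.31 and 1.04, and DDIT4 alone was called. No member was called for a difference in response between the lines. A gene was called when the Benjamini-Hochberg adjusted p of edgeR's quasi-likelihood test over all genes was under 0.05, and the study's own limits (a log2 fold change over 0.58 either way with an unadjusted p under 0.05) are given beside it. The study names a binomial test for its p, and here the limits were applied to edgeR's p. Counts at these limits are therefore not the study's counts. In HepG2, 9 of the 10 genes had enough reads to be tested, and 3 were called higher and none lower, where 2.77% of the 11343 tested genes were called higher and 0.538% lower. At the study's limits 6 were higher and none lower, where 11.3% and 10.9% of tested genes were. In Ls174 all 10 were tested, with 1 called higher and none lower against 0.318% and 0.866% of 11319 genes, and 7 higher and none lower at the study's limits against 4.11% and 7.85%. The median log2 fold change of the tested members was 1.15 in HepG2 and 1.02 in Ls174, beside -0.0418 and -0.00287 over all tested genes. RNA was taken from whole cultures, so that fewer cells of a kind and less RNA per cell cannot be told apart. The study chose its concentration from the growth inhibition of these lines by HME. In its flow cytometry after 24 h of HME, both lines had fewer viable cells and more late apoptotic and necrotic ones. The part of dying cells in these levels was not tested.

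**Figure D1:**
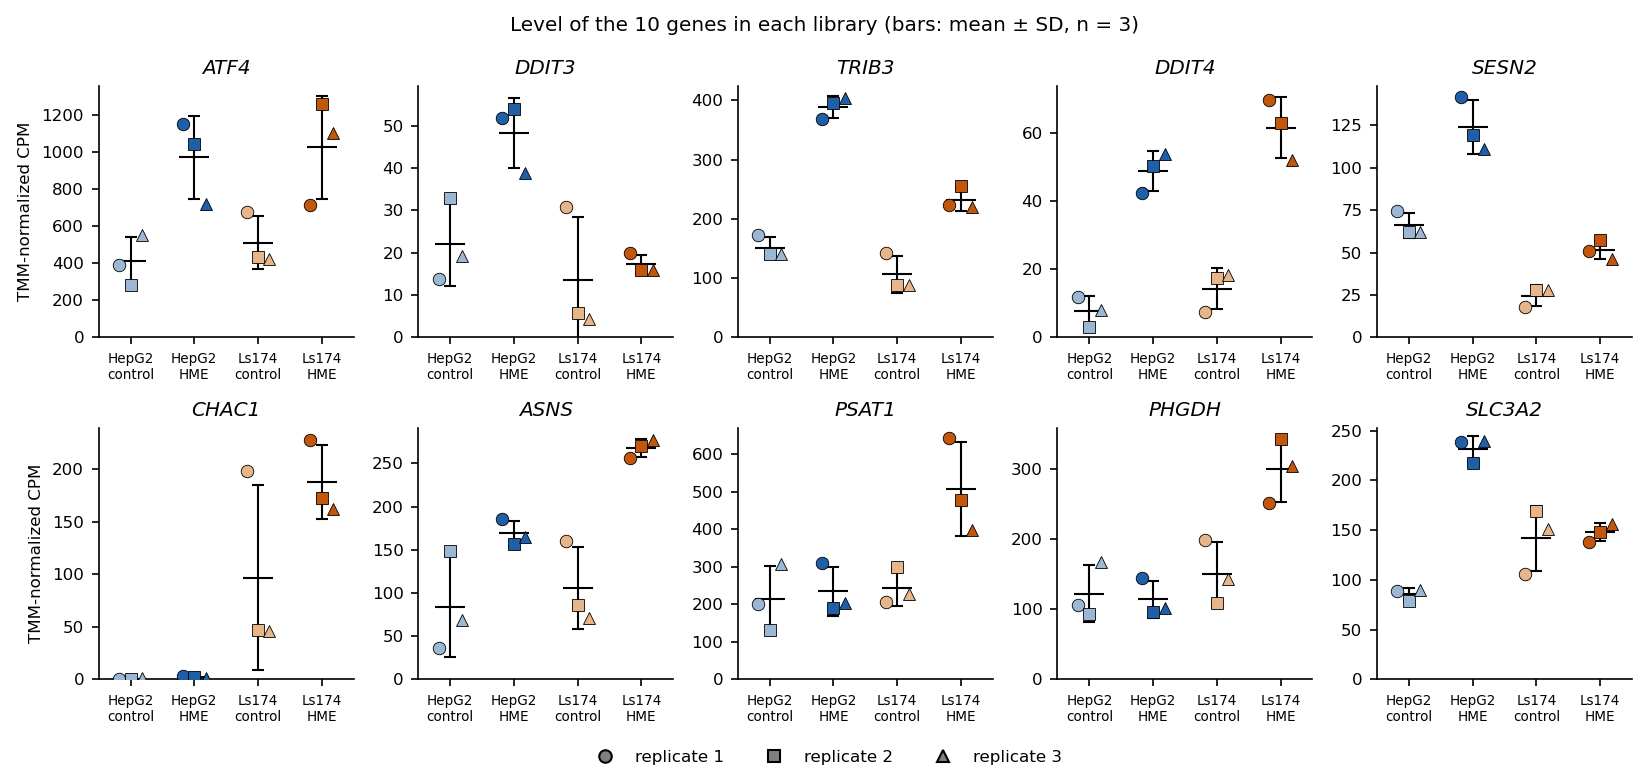
Level of each of the 10 genes in TMM-normalized CPM (vertical axis, from 0, scaled per gene) in the 3 libraries of each group, with marker shape for the replicate and bars for the mean and SD (n = 3). DDIT4 lies at 42.5 CPM or more in every HME library and at 18.3 CPM or less in every control, and SLC3A2 lies at 217 CPM or more in the HepG2 HME libraries and at 90.0 CPM or less in the HepG2 controls, with no such gap in Ls174.

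ATF4 mRNA was at 393, 285 and 551 CPM in HepG2 controls 1 to 3 and at 1150, 1045 and 720 CPM in the HME libraries. The groups did not overlap, as for 7 of the 9 tested members and 15.5% of all HepG2 genes tested, all in the higher direction, and the log2 fold change was 1.27 ± 0.35 (SE, n = 3 against 3, edgeR adjusted p = 0.0808). In Ls174 it was at 678, 432 and 424 CPM in the controls and at 716, 1257 and 1104 CPM after HME, with control 1 close to the lowest HME library but, as for 7 of the 10 members and 11.6% of the Ls174 genes tested, no overlap. There the log2 fold change was 0.99 ± 0.29 (edgeR adjusted p = 0.194). ATF4 was thus past the study's limits in both lines and past the adjusted threshold in neither. Without HepG2 control 2 its log2 fold change was 1.11 (adjusted p = 0.0481), and without Ls174 control 1 it was 1.27 (adjusted p = 0.00165).

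DDIT3, which encodes CHOP, was at 13.9, 32.8 and 19.3 CPM in the HepG2 controls and at 51.9, 54.1 and 38.8 CPM after HME, again without overlap. Its log2 fold change was 1.15 ± 0.39 with an edgeR adjusted p of 0.134. In Ls174 the controls read 30.8, 5.86 and 4.33 CPM and the HME libraries 19.9, 15.9 and 16.0 CPM. Control 1 lay above every HME library and the other controls, whose mean it exceeded 6.04 times, below every HME library. The log2 fold change was 0.39 ± 0.67 (edgeR adjusted p = 0.825) with all 6 libraries and 1.77 ± 0.31 (adjusted p = 0.00191) without control 1. Without HepG2 control 2, the HepG2 value was 1.63 (adjusted p = 0.0104). MARS, whose region overlaps that of DDIT3, read 35.3 to 73.1 CPM in HepG2 controls and 83.0 to 127 CPM after HME, and 43.0 to 59.5 and 76.0 to 129 CPM in Ls174, and its part in the DDIT3 counts was not tested.

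TRIB3, a pseudokinase that ATF4 and CHOP induce and that restrains both, rose in HepG2 from 173, 140 and 141 CPM to 368, 395 and 404 CPM. All 3 HME libraries were more than 2 times above every control, the log2 fold change was 1.37 ± 0.29 and the edgeR adjusted p 0.0343. In Ls174 TRIB3 was at 143, 87.9 and 87.8 CPM in the controls and at 223, 255 and 219 CPM after HME, without overlap. That difference was 1.12 ± 0.25 on the log2 scale (edgeR adjusted p = 0.0876), and 1.41 (adjusted p = 8.4e-05) without Ls174 control 1.

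DDIT4 and SESN2 encode restrainers of mTORC1, the kinase complex that drives growth when amino acids are plentiful. DDIT4 (also known as REDD1) had the largest fold change of the tested members in both lines and was the only one called in both. In HepG2 it rose from 11.8, 3.10 and 8.03 CPM to 42.5, 50.2 and 53.7 CPM, a 6.21-fold change (log2 2.63 ± 0.42, edgeR adjusted p = 0.0113). In Ls174 it rose from 7.33, 17.3 and 18.3 CPM to 69.5, 62.9 and 51.9 CPM, a 4.18-fold change (log2 2.06 ± 0.33, edgeR adjusted p = 0.0344). Its levels after HME were of like size in the lines, 48.8 ± 5.76 CPM in HepG2 and 61.5 ± 8.89 CPM in Ls174 (SD, n = 3). The library with the lowest DDIT4 among the controls was in each line the one that stood apart, and without it the log2 fold change was 2.34 (adjusted p = 0.00196) in HepG2 and 1.79 (adjusted p = 4.1e-05) in Ls174. Leaving out HepG2 HME 3 ended the HepG2 call (adjusted p = 0.0642), and in Ls174 the call held without control 1 and was lost without any of the other 5 libraries (adjusted p up to 0.274). Over all genes, the fit without HepG2 HME 3 called 95, against 375 with all libraries. Those 5 Ls174 fits called 0 to 10, against 134.

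SESN2 (sestrin 2) was at 74.6, 61.9 and 61.8 CPM in the HepG2 controls and at 142, 119 and 111 CPM after HME. In Ls174 it was at 17.6, 28.1 and 28.0 CPM in the controls and at 50.7, 57.3 and 46.4 CPM after HME. Groups did not overlap in either line and the changes were near 2-fold in both, with log2 fold changes of 0.92 ± 0.29 (edgeR adjusted p = 0.111) and 1.05 ± 0.24 (adjusted p = 0.0985). SESN2 passed the adjusted threshold without HepG2 control 2 (0.93, adjusted p = 0.0481) and without Ls174 control 1 (0.88, adjusted p = 0.00655).

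CHAC1, a gamma-glutamylcyclotransferase that breaks down glutathione, was close to silent in HepG2. The HepG2 controls held 0, 1 and 2 of its reads and the HME libraries 9, 7 and 2, too few for the test across genes. Pooled over libraries, 18 counts against 3 give a ratio of 6.66 with a 95% counting interval of 1.94 to 35.3, which takes no account of the spread between replicates. In Ls174 CHAC1 was at 198, 46.6 and 46.1 CPM in the controls and at 228, 173 and 163 CPM after HME. Control 1 lay among the HME libraries, at 4.28 times the mean of the other controls. The log2 fold change was 0.95 ± 0.55 (edgeR adjusted p = 0.485) with it and 2.03 ± 0.20 (adjusted p = 1.3e-05) without it.

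ASNS, asparagine synthetase, was at 35.8, 149 and 68.3 CPM in the HepG2 controls and at 186, 157 and 164 CPM after HME. Control 2, at 2.86 times the mean of the other controls, came close to the HME libraries, and the log2 fold change was 0.99 ± 0.49 (edgeR adjusted p = 0.269) with this library and 1.77 ± 0.31 (adjusted p = 0.0103) without it. In Ls174 ASNS was at 160, 86.1 and 71.2 CPM in the controls and at 257, 270 and 277 CPM after HME. The HME libraries, at 268 ± 10.3 CPM (SD, n = 3), lay clear of the controls, with a log2 fold change of 1.34 ± 0.31 (edgeR adjusted p = 0.101) that became 1.78 ± 0.17 (adjusted p = 1.5e-05) without control 1.

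PHGDH and PSAT1 catalyse the opening steps of serine synthesis from glycolysis. In HepG2 PHGDH was at 106, 92.9 and 168 CPM in the controls and at 145, 96.6 and 102 CPM after HME, and PSAT1 was at 202, 132 and 308 CPM against 309, 191 and 202 CPM. Control and HME libraries overlapped for both enzymes, with log2 fold changes of -0.08 (95% interval -0.83 to 0.68) for PHGDH and 0.16 (-0.68 to 0.99) for PSAT1. In Ls174 PHGDH was at 199, 110 and 143 CPM in the controls and at 251, 343 and 305 CPM after HME, and PSAT1 was at 206, 301 and 226 CPM against 645, 479 and 399 CPM. Here neither overlapped, and the log2 fold changes were 0.99 ± 0.26 for PHGDH (edgeR adjusted p = 0.144) and 1.05 ± 0.25 for PSAT1 (adjusted p = 0.104). Without Ls174 control 1 they were 1.25 (adjusted p = 0.000574) and 0.95 (adjusted p = 0.0102).

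SLC3A2 (CD98 heavy chain) carries light chains such as SLC7A5 and SLC7A11 to the cell surface. In HepG2 it rose from 89.0, 78.6 and 90.0 CPM to 239, 217 and 239 CPM, with little spread in either group, a log2 fold change of 1.44 ± 0.28 and an edgeR adjusted p of 0.0252. In Ls174 it was at 106, 169 and 151 CPM in the controls and at 138, 148 and 156 CPM after HME. All 3 HME libraries lay between the lowest and the highest control, and the log2 fold change was 0.05 (95% interval -0.44 to 0.54, edgeR adjusted p = 0.931), or -0.11 (adjusted p = 0.752) without control 1.

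**Figure D2:**
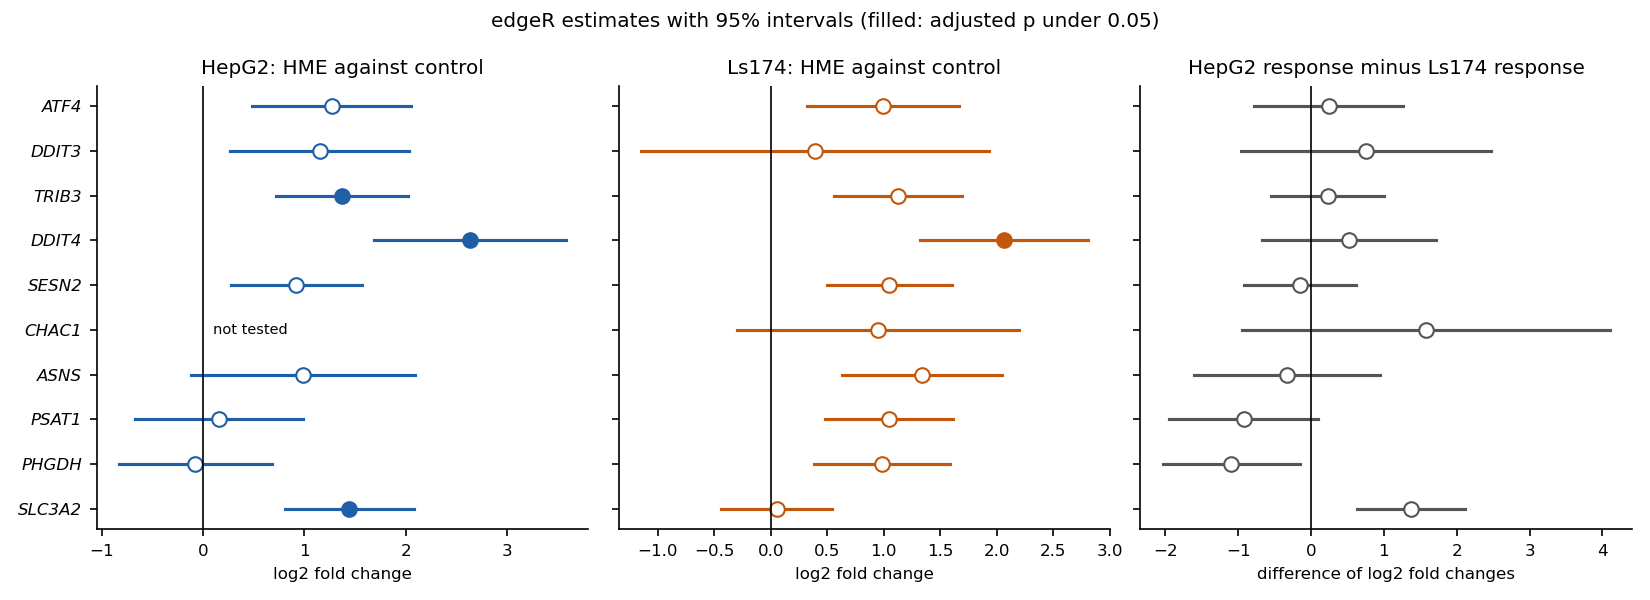
log2 fold change of HME against control in HepG2 (left) and Ls174 (middle) and the difference of these changes between the lines (right), with 95% intervals from edgeR (horizontal axes, scaled per panel) and filled points for adjusted p under 0.05. DDIT4, SLC3A2 and TRIB3 are filled in HepG2, DDIT4 in Ls174 and none in the right panel, where the intervals of SLC3A2 (0.64 to 2.11) and PHGDH (-2.03 to -0.15) leave out 0.

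Over the set, leaving out the control library that stood apart had opposite effects on the counts from leaving out any other. These libraries were picked from the same data, so calls without them are no separate support. Without Ls174 control 1, 9 of the 10 genes were called higher, all but SLC3A2, where 3.06% of 11673 genes were. Over all genes that fit called 979, against 134 with all 6 libraries. Without HepG2 control 2, 7 of the 9 tested genes were called higher, all but PSAT1 and PHGDH, where 5.67% of 11899 genes were. Over all genes that fit called 921, against 375 with all 6 libraries. In that fit the log2 fold change was 1.38 for TRIB3 (edgeR adjusted p = 0.00924) and 1.44 for SLC3A2 (adjusted p = 0.00658). PSAT1 changed sign, to -0.0509 (adjusted p = 0.939), and PHGDH was at -0.19 (adjusted p = 0.734). Without each of the other libraries in turn, 0 or 1 of the genes were called in either line, DDIT4 wherever there was 1. Over all genes, those fits called 95 to 248 in HepG2, against 375 with all 6 libraries. In Ls174 they called 0 to 10, against 134. Ls174 control 1 stood above the mean of the other controls for 6 of the genes (DDIT3, CHAC1, ASNS, TRIB3, ATF4 and PHGDH, by 1.58 to 6.04 times) and below it for PSAT1, SLC3A2, SESN2 and DDIT4 (0.412 to 0.781 times). HepG2 control 2 stood above for ASNS (2.86 times) and DDIT3 (1.98 times) and below for DDIT4 (0.313 times), PSAT1 (0.518 times), ATF4 (0.604 times) and PHGDH (0.678 times). TRIB3, SESN2 and SLC3A2 were at 0.879 to 0.908 times there, and CHAC1 held 1 count. Without the HepG2 HME library with mesenchymal transcripts, DDIT4 remained called (2.64, adjusted p = 0.0455) whereas TRIB3 (1.38, adjusted p = 0.134) and SLC3A2 (1.51, adjusted p = 0.0990) kept their size and lost the call. That fit called 142 genes of all tested. TRIB3 and SLC3A2 also lost the call without any of HepG2 controls 1 and 3 and HME 1 and 3 (edgeR adjusted p 0.0693 to 0.160), so the loss was not particular to this library.

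**Figure D3:**
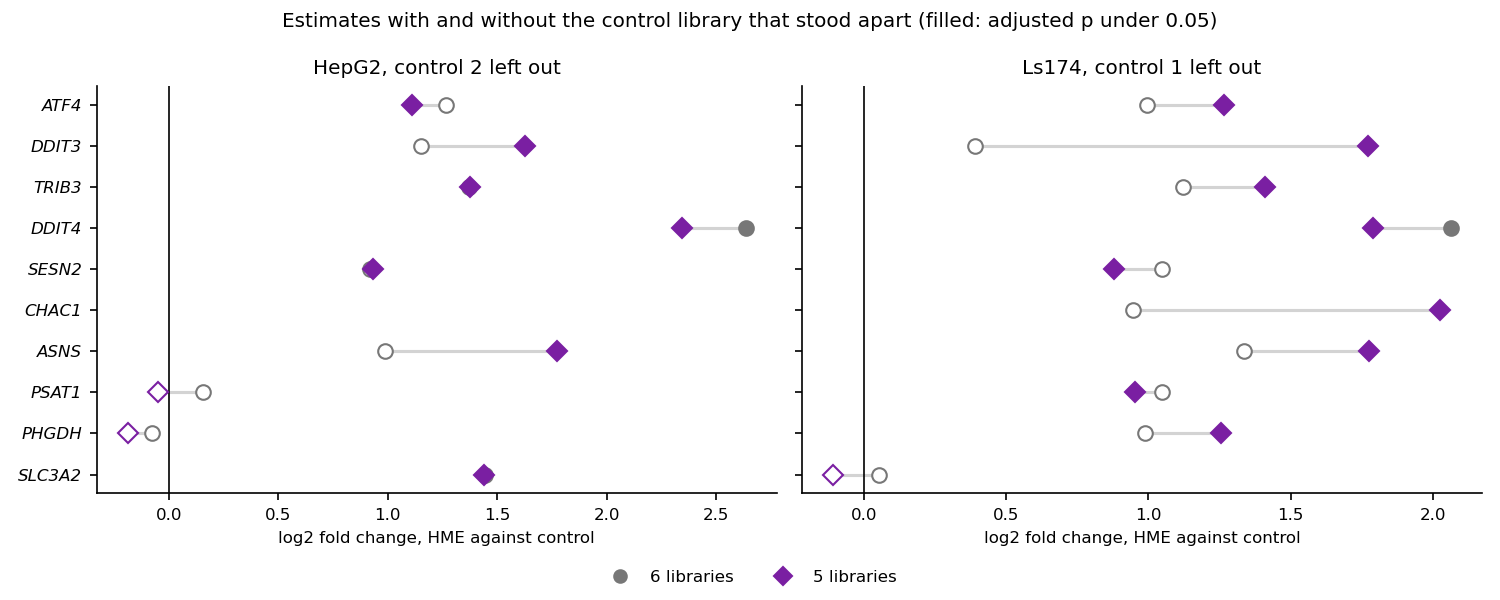
log2 fold change of HME against control (horizontal axis) with all 6 libraries of a line (circles) and without the control library that stood apart (diamonds), filled where the edgeR adjusted p was under 0.05. In Ls174, DDIT3 moves from 0.39 to 1.77 and CHAC1 from 0.95 to 2.03, and in HepG2 ASNS moves from 0.99 to 1.77.

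Whether a gene responded differently in the lines was tested with the interaction of line and HME over all 12 libraries. By edgeR none of the 10 genes passed the adjusted threshold, where 0.644% of 13040 genes did, and 2 had an unadjusted p under 0.05, where 13.2% did. The estimated HepG2 response minus the Ls174 response of SLC3A2 was 1.37 ± 0.34 on the log2 scale, not called (95% interval 0.64 to 2.11, unadjusted p = 0.00127, edgeR adjusted p = 0.0932). It passed the threshold by DESeq2 (adjusted p = 0.000415), the only member to do so, and by edgeR without Ls174 control 1 (1.55, adjusted p = 0.0380, where 0.972% of genes were called in that direction). The same difference for PHGDH was -1.09 ± 0.44 (95% interval -2.03 to -0.15, unadjusted p = 0.0260, adjusted p = 0.297) and for PSAT1 -0.92 ± 0.48 (interval -1.95 to 0.10, adjusted p = 0.429). For ATF4 the difference was 0.24 (interval -0.78 to 1.26), for TRIB3 0.23 (-0.55 to 1.01), for SESN2 -0.15 (-0.92 to 0.62) and for DDIT4 0.52 (-0.67 to 1.72), each with an interval that takes in 0. Those of DDIT3 (0.76, -0.96 to 2.47), ASNS (-0.33, -1.61 to 0.94) and CHAC1 (1.57, -0.95 to 4.10) were wider still.

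Between the untreated lines, CHAC1 and SESN2 differed and the other 8 genes were not called, where 14.2% of 11907 genes were called higher in HepG2 and 9.33% lower. CHAC1 had 738 counts in the Ls174 controls against 3 in the HepG2 controls, a ratio of 209 with a 95% counting interval of 71.4 to 1018 (edgeR adjusted p = 0.000661), and 1617 against 18 in the HME groups (ratio 73.4, interval 46.3 to 124). SESN2 was 2.74 times higher in HepG2 controls (66.1 ± 7.32 CPM) than in Ls174 controls (24.6 ± 6.03 CPM, SD, n = 3, log2 1.45 ± 0.33, edgeR adjusted p = 0.0117). SLC3A2 was lower in HepG2 controls without overlap, as were 20.3% of genes (85.9 ± 6.27 against 142 ± 32.6 CPM), but its log2 difference of -0.69 ± 0.32 was not past the threshold (edgeR adjusted p = 0.157), which of the alternatives run it passed only in a fit of all 12 libraries (adjusted p = 0.0314). The controls of the lines overlapped for ATF4, DDIT3, DDIT4, TRIB3, ASNS, PSAT1 and PHGDH. Of these, DDIT3 was called when Ls174 control 1 was left out, higher in HepG2 by 2.13 ± 0.53 (adjusted p = 0.0200, where 15.4% of genes were called higher). Untreated and treated comparisons share the control libraries.

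Other genes tied to the integrated stress response were followed in 8 lists of 71 genes, from the eIF2alpha kinases to endoplasmic reticulum chaperones. Whether HME set off that response was not tested. In HepG2, 9 of 66 tested genes were called higher and none lower, with 26 higher and 5 lower at the study's limits, and the median log2 fold change was 0.42. Over all HepG2 genes tested, 2.77% were called higher and 0.538% lower, and 11.3% and 10.9% were past the limits. In Ls174, 3 of 67 were called higher and 3 lower, with 16 and 12 at the limits and a median of 0.31, where 0.318% and 0.866% of all genes were called and 4.11% and 7.85% were past the limits. With 1 library left out at a time, ATF3 stayed called in HepG2 in 6 of 6 fits, the other 8 genes called there in 1 to 4 and the 6 genes called in Ls174 in 1 or 2, among them for every gene the fit without the control library that stood apart. Over all genes, these fits called 95 to 921 in HepG2 and 0 to 979 in Ls174.

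ATF3, a stress-induced repressor and target of ATF4, had the largest change of the lists. In HepG2 it rose from 5.88, 1.86 and 5.22 CPM to 257, 169 and 214 CPM (log2 5.57 ± 0.45, edgeR adjusted p = 0.00062). In Ls174 it was at 0, 5.86 and 3.31 CPM in the controls and at 10.1, 9.90 and 8.16 CPM after HME (1.52 ± 0.75, adjusted p = 0.415). The difference between lines was 4.03 ± 0.80 and was called (edgeR adjusted p = 0.0339), the only gene of the lists for which it was. Of all 13040 genes tested for this difference, 0.644% were called. The ATF3 difference was not refitted with a library left out or under the other alternatives. Of the 6 partner transcription factors, all 6 had positive log2 fold changes in both lines (medians 1.75 and 0.54), with ATF3 and NUPR1 called in HepG2 (NUPR1 1.82 ± 0.30, adjusted p = 0.0124) and none in Ls174. Of all genes tested, 2.77% were called higher in HepG2 and 0.318% in Ls174, with medians of -0.0418 and -0.00287.

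Among 7 eIF2alpha kinases and phosphatase regulators, PPP1R15A (GADD34, which brings the phosphatase back to eIF2alpha) rose in HepG2 from a mean of 6.69 to 96.5 CPM (log2 3.83 ± 0.82, edgeR adjusted p = 0.0364) and was at 5.06 and 11.5 CPM in Ls174 (1.14 ± 0.45, adjusted p = 0.328). EIF2AK4 (GCN2, the kinase that senses uncharged tRNA) had log2 fold changes of 0.24 and 0.81, with adjusted p of 0.790 and 0.555. EIF2AK3 (PERK, the kinase of endoplasmic reticulum stress) had a log2 fold change of 0.39 in HepG2 and of -1.27 ± 0.31 in Ls174, where the groups did not overlap (27.2 ± 2.19 against 11.3 ± 3.74 CPM, adjusted p = 0.113).

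Of the secreted factors and cell death effectors, 3 of 6 tested were called higher in HepG2. They were GDF15, a cytokine of cell stress, from a mean of 1070.3 to 10416 CPM (log2 3.25 ± 0.61, edgeR adjusted p = 0.0197), STC2 (2.37 ± 0.47, adjusted p = 0.0271) and BCL2L11, which encodes the death effector BIM (2.26 ± 0.48, adjusted p = 0.0336). In Ls174 GDF15 alone of this list was called, from 485 to 1963 CPM (2.01 ± 0.31, adjusted p = 0.0337), and the list's medians were 2.32 and 0.06. The share of all tested genes called higher was 2.77% in HepG2 and 0.318% in Ls174.

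Of 11 tested enzymes of amino acid and one-carbon metabolism, CTH, which makes cysteine from cystathionine, rose in HepG2 (log2 2.75 ± 0.44, edgeR adjusted p = 0.0108), as did the mitochondrial folate enzyme MTHFD2 (1.61 ± 0.30, adjusted p = 0.0208). In Ls174 PCK2, mitochondrial phosphoenolpyruvate carboxykinase, rose from 29.6 to 88.5 CPM (1.56 ± 0.28, adjusted p = 0.0392) and was at 60.7 and 66.7 CPM in HepG2. The tRNA charging list had positive log2 fold changes for 10 of 13 genes in HepG2 and 12 of 13 in Ls174, with medians of 0.49 and 0.46, and only WARS in Ls174 was called (1.00 ± 0.18, edgeR adjusted p = 0.0420). Over all tested genes the medians were -0.0418 in HepG2 and -0.00287 in Ls174, and 2.77% and 0.318% were called higher.

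Of the 7 amino acid transporters, 4 were higher and none lower at the study's limits in HepG2, and 1 was higher and 3 lower in Ls174, with medians of 0.72 and -0.59. Of all genes tested, 11.3% were higher and 10.9% lower at these limits in HepG2, and 4.11% and 7.85% in Ls174. SLC7A11, the cystine transporter that pairs with SLC3A2, rose in HepG2 from 40.5 to 163 CPM (log2 2.01 ± 0.32, edgeR adjusted p = 0.0113) and had a log2 fold change of 0.97 ± 0.38 in Ls174 (adjusted p = 0.331). SLC7A5, SLC7A1 and SLC38A2 were named after their values were seen. SLC7A5, a light chain of SLC3A2 that carries large neutral amino acids, had log2 changes of -0.11 ± 0.51 in HepG2, with overlap, and -2.10 ± 0.48 in Ls174, without overlap (edgeR adjusted p = 0.917 and 0.0980), and a difference between lines of 1.98 ± 0.74 (adjusted p = 0.257). Its Ls174 controls were at 1163, 346 and 375 CPM, highest in control 1, and the HME libraries at 188, 126 and 129 CPM. SLC7A1 and SLC38A2 had higher values with HME in HepG2 and lower ones in Ls174, without overlap in either line, and were not called in either. SLC7A1, a carrier of arginine and lysine, had log2 changes of 1.04 and -0.95 with a difference between lines of 1.94 ± 0.47 (edgeR adjusted p = 0.0882). SLC38A2, a carrier of small neutral amino acids, had log2 changes of 0.72 and -0.59 with a difference of 1.29 ± 0.37 (adjusted p = 0.144).

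The 13 endoplasmic reticulum chaperones and degradation factors had medians below 0, at -0.26 in HepG2 with 1 higher and 5 lower at the study's limits, and at -0.90 in Ls174 with 1 higher and 7 lower, where 10.9% of all genes in HepG2 and 7.85% in Ls174 were lower at these limits. In Ls174, 3 of them fell. HSPA5 (BiP, the main chaperone there) was at 747, 916 and 854 CPM in the controls and at 285, 340 and 343 CPM after HME, and fell by 1.38 ± 0.20 on the log2 scale (edgeR adjusted p = 0.0302). HSP90B1 fell by 2.01 ± 0.22 (adjusted p = 0.0134) and HYOU1 by 1.87 ± 0.29 (adjusted p = 0.0331). In HepG2 none of the 13 was called, and 5 had positive log2 fold changes, as did 4 in Ls174. HSPA5 had a HepG2 log2 fold change of -0.16 ± 0.32 (edgeR adjusted p = 0.795). HSP90B1 (-0.93 ± 0.37, adjusted p = 0.184) and HYOU1 (-1.12 ± 0.41, adjusted p = 0.158) were lower in HepG2 past the study's limits. The differences between lines for HSPA5 (1.20 ± 0.39), HSP90B1 (1.08 ± 0.41) and HYOU1 (0.76 ± 0.49) were not called (adjusted p = 0.204, 0.264 and 0.552). Of the 5 restrainers of mTORC1 beside DDIT4 and SESN2, 3 were tested in HepG2 and 4 in Ls174, and none was past either limit in either line.

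**Figure D4:**
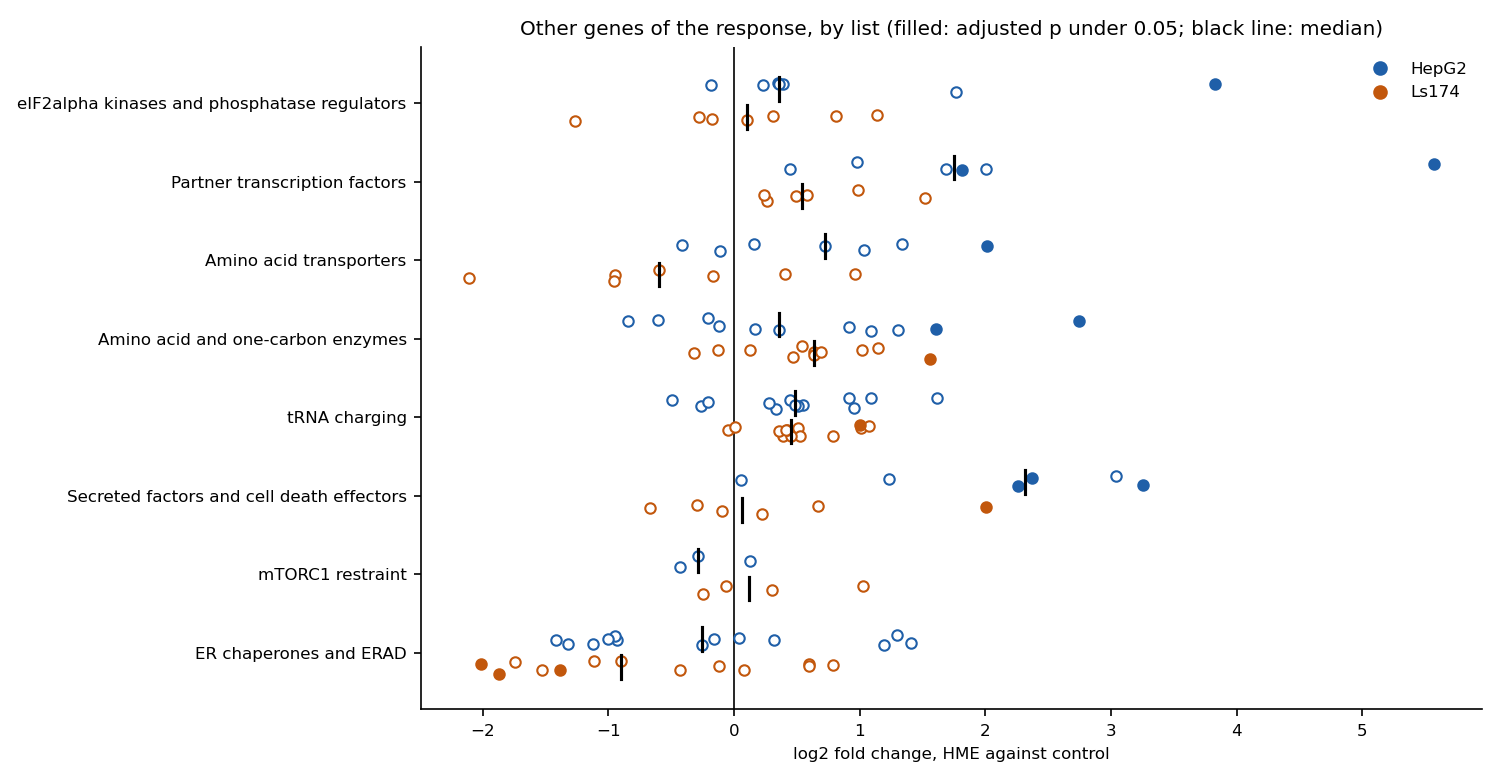
log2 fold change of HME against control (horizontal axis) for each tested gene of the 8 lists (rows), HepG2 in blue and Ls174 in orange, filled where the edgeR adjusted p was under 0.05, with a black line at each median. ATF3 lies farthest right at 5.57, and the filled Ls174 points of the chaperone list lie between -2.01 and -1.38.

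Over all 12 libraries, the profiles most like those of 3 members were sought by the root-mean-square difference of centred log2 CPM among 13030 genes. Nearest to ATF4 were RPL24P8 (0.308), MARS (0.317) and NECAP1 (0.353), where the root-mean-square of the ATF4 profile itself was 0.670. Nearest to DDIT3 were JUND (0.451), AKR1B1 (0.477) and RP1-232L22__B.1 (0.492), against 1.03 for DDIT3 itself. Nearest to ASNS were IER2 (0.498), KRT18P10 (0.508) and RP11-132A1.4 (0.524), against 0.872 for ASNS itself. The 12 libraries share the line and the treatment as sources of their likeness.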

How the data were processed

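The authors made 3′ libraries (QuantSeq) of total RNA, sequenced them on an Ion Proton instrument, aligned the reads to hg19 with Hisat2 at default settings and passed them to metaseqR2, and the deposited files hold unnormalized read counts per 3′ region. The version of metaseqR2 and the handling of strand and of reads with several alignments are not given in the sources used here. The processing notes also name Bowtie2 and Trimmomatic.

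The counts of all 144910 regions were summed per gene. Each line was fitted with its 6 libraries, and the interaction with all 12, in edgeR 4.0.16 (TMM, filterByExpr, quasi-likelihood F test, two-sided) under R 4.3.3, with Benjamini-Hochberg adjustment over all tested genes. The SE was derived from the F statistic. CPM values use TMM over 12 libraries. DESeq2 1.42.0, other scalings, filters, a replicate block and leaving out each library were alternatives. The steps were tested on simulated data. Figures used matplotlib 3.10.9. Where nothing beyond the study's word says that cultures were separate, p-values measure the spread between these samples.

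Named were all 10 genes, called genes of the lists (up to 4 per list and line), EIF2AK3, EIF2AK4, PPP1R15A, ATF3, SLC7A11 and HSPA5 in any case, and the 3 profiles nearest to ATF4, DDIT3 and ASNS. SLC7A5, SLC7A1 and SLC38A2 fall outside this rule and were named after their values were seen. The members and lists were chosen with earlier results of these data known. Same-numbered control and HME libraries did not deviate together (correlations -0.167 to 0.0884), so replicate numbers were not used to pair them. No replicate pair was a duplicate by its counts.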

Additional observations from a re-analysis of the deposited data

Results flagged for a closer look

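The estimated response of ATF3 to HME was larger in HepG2 than in Ls174. The difference of the log2 fold changes was 4.03 ± 0.80 (edgeR interaction of line and HME over all 12 libraries, adjusted p = 0.0339), from 5.57 in HepG2 and 1.52 in Ls174, and all HME libraries lay above all controls in both lines. In Ls174 the controls held few reads of this gene, and control 1 held none. The call for this difference was not tried with a library left out or under the other alternatives. Over all genes, 84 of 13040 (0.644%) were called for the interaction. Fits with 1 library left out called 17 to 143, and the replicate block 16.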

How the results depend on the processing

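The count of members called in HepG2 was 3, and was 1 with library sizes alone, 5 by DESeq2 and 5 in a fit of all 12 libraries. In Ls174 it was 1, and was 7 by DESeq2, 8 with every gene of at least 1 count and 2 with at least 10 counts in every library. The interaction called 0 members, and 1 (SLC3A2) by DESeq2. The untreated lines differed in 2, in 3 (SLC3A2 added) in a fit of all 12 libraries, and in 1 with at least 10 counts in every library, where CHAC1 was not tested. With each library left out in turn the counts ran from 0 to 7 in HepG2, 0 to 9 in Ls174, 0 to 1 for the interaction (1 to 3 at an unadjusted p under 0.05, against 2) and 2 to 3 for the untreated lines (2 to 5 at the study's limits, against 2). At the study's limits the counts stayed within 5 to 8 in HepG2 and 7 to 9 in Ls174. Where an arm was left with 2 libraries the spread was shared with the other group. With the replicate number as a block, 1 member was called in HepG2, 0 in Ls174 and 1 passed an unadjusted p under 0.05 for the interaction, and the numbers did not pair the libraries.

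Over all genes, 375 were called in HepG2 (1033 by DESeq2, 1407 with at least 1 count, 188 with at least 10, 807 in the fit of 12), 134 in Ls174 (434 by DESeq2, 604 with at least 1 count, 0 with the block), 84 for the interaction (380, 367, 46 and 16 likewise, 49 with library sizes) and 2798 for the untreated lines (912 with at least 10 counts, 4631 in the fit of 12). Library sizes alone moved the median of all genes from -0.04 to -0.20 in HepG2, and there turned PSAT1 to -0.0191 and PCK2 to -0.0648. Of 287 member values under these alternatives, 260 kept direction and side of the threshold, 5 lost and 21 gained the call and 1 changed sign. The cause was not tested. Values that changed sign without 1 library ranged, in HepG2, for PSAT1 from -0.0708 to 0.49, PHGDH -0.26 to 0.20, EIF2AK4 -0.0534 to 0.52, PCK2 -0.25 to 0.51, WARS -0.58 to 0.21 and HSPA5 -0.32 to 0.0163. In Ls174 they were DDIT3 (-0.0620 to 1.77) and SLC3A2 (-0.11 to 0.20), for the interaction ATF4 (-0.0120 to 0.52), DDIT3 (-0.59 to 1.21), TRIB3 (-0.0401 to 0.35), ASNS (-0.77 to 0.34) and SESN2 (-0.30 to 0.0346), and for the untreated lines ASNS (-0.99 to 0.14) and PSAT1 (-0.50 to 0.0883).

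Each group held 3 libraries, 1 of them apart in each control group. The SE of the difference in response between lines ran from 0.34 (SLC3A2) to 1.18 (CHAC1) on the log2 scale. What size of difference could be detected was not tested. CHAC1 in HepG2 lay near the floor.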
